A study of Bos taurus with 9 samples.

Results

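The 10 genes described here encode the cytosolic chaperones of cow liver that belong to the heat shock protein (HSP) families HSP70, HSP110, HSP90 and HSP40. They are the HSP70 genes *HSPA1A*, *HSPA1L*, *HSPA6* and *HSPA8*, the HSP110 genes *HSPH1* and *HSPA4*, the HSP90 genes *HSP90AA1* and *HSP90AB1*, and the HSP40 genes *DNAJA1* and *DNAJB1*. They were picked by symbol from a table of read counts on 28786 genes, and all 10 passed the filter on low counts in each comparison. Between HS and TN, however, *HSPA1L* and *HSPA6* passed it only through the HS cows, where their counts were higher. The samples were liver biopsies of lactating Holstein cows, with 1 biopsy and 1 RNA-seq library from each cow and 3 cows in each of 3 groups, so that n = 3 throughout. Heat stress (HS) cows lived in a room that was hot by day and warm by night. Pair-fed (PF) cows stayed at thermoneutrality and received only as much feed as the HS cows ate. Thermoneutral (TN) cows stayed at the same comfortable temperature without that limit on feed. The biopsies were taken while the treatments were still running. Heat and low intake were present together in the HS group and low intake alone in the PF group, so the comparison of HS with PF cows addresses heat at a matched intake.

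HSP70 proteins bind unfolded stretches of other proteins and release them again in a cycle driven by ATP. J-domain proteins of the HSP40 family bring substrates to HSP70 and trigger ATP hydrolysis, HSP110 proteins exchange the spent nucleotide, and HSP90 takes over partly folded clients from HSP70. Unfolded protein frees the transcription factor HSF1, which then switches on the inducible genes of each family, while *HSPA8*, *HSPA4* and *HSP90AB1* are the members that cells make all the time.

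Each library held 16874444 to 22557047 reads counted on genes. Levels are given as CPM, read counts scaled to the size of the library after TMM normalization of the 9 libraries, and a count of 0 allowed a level of up to 0.111 to 0.202 CPM, depending on the library, for counting error only. Gene lengths were not used here, so levels are compared between cows for each gene and not between genes. The liver label was borne out by *ALB*, the albumin gene of hepatocytes, at 8768 to 82514 CPM. TN replicate 1 stood apart: the summed level of 6 hepatocyte markers was 14445 CPM in it and 49599 to 105153 CPM in the other 8 cows, and among the TN cows it had the lowest level of each chaperone gene but *HSPA4*. The fold changes of the 10 genes against the TN group are therefore also given without it, and those of the other genes named were computed with it. In a bulk biopsy, fewer cells of a type and less RNA per cell cannot be told apart.

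All 10 genes had a higher mean in HS than in TN cows. Their log2 fold changes lay between 0.34 and 2.88, the median being 1.42, where the median over all 14582 genes tested was -0.01. The HS cows stood above all TN cows in 9 of the 10 genes, *HSPA1L* being the exception, and in 8.37% of all genes tested. A fold change over 1.5 was reached by 8 of the 10 genes and by 9.89% of all genes, and an unadjusted p under 0.05 by 7 of the 10 and by 4.13% of all genes. The 8 genes include *HSPA1L* and *HSPA6*, which passed the count filter only through the HS cows and so add no independent support. *HSPA6* is also among the 9 non-overlapping genes and the 7 with an unadjusted p under 0.05, and adds none there either. After Benjamini-Hochberg adjustment over all genes (FDR), with an FDR below 0.1 and a fold change above 1.5 needed for a call, edgeR called 1 of the 10 genes, *HSPH1*, and 0.0343% of all genes higher in HS cows. DESeq2 called 6 of the 10, *HSPA1A*, *HSPA6*, *HSPH1*, *HSP90AA1*, *DNAJA1* and *DNAJB1*, and 0.863% of all genes. *HSPA6*, with few counts in the TN cows, adds no independent support among these 6 either. Without TN replicate 1 the counts of non-overlapping genes and of genes past the 1.5-fold mark were again 9 and 8, and the median log2 fold change of the 10 genes was 1.24. No share over all genes was set beside these 2 counts, and fewer cows make non-overlap easier.

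**Figure D1:**
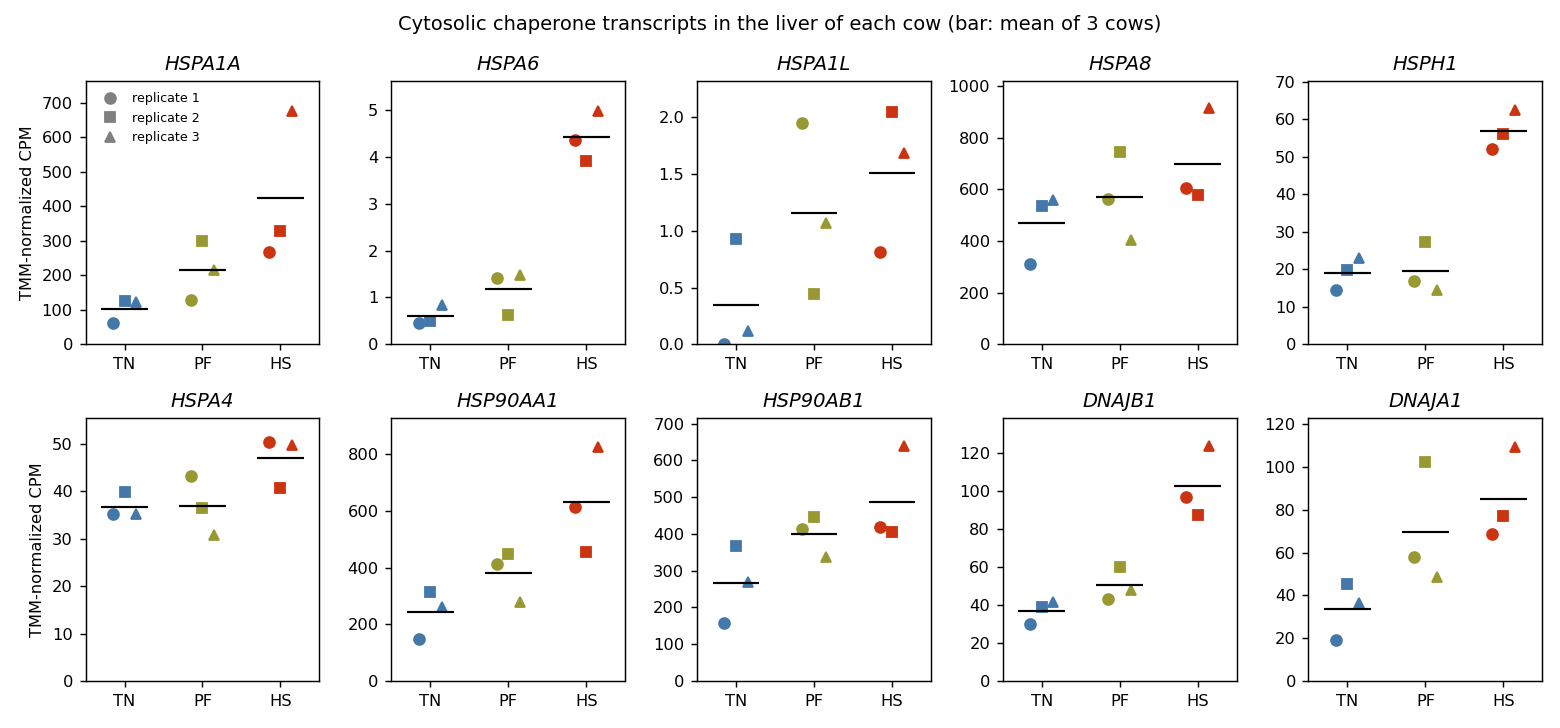
TMM-normalized CPM of the 10 chaperone genes in each cow (y axis, from 0, a separate scale for each gene) by group (x axis), with a symbol for each cow and a bar at the mean of 3 cows. The 3 HS cows stand clear of all other cows for *HSPA6*, *HSPH1* and *DNAJB1*, and the PF mean lies between the other means for *HSPA1A* and nearer to the HS mean for *HSP90AB1*.

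Among the HSP70 genes, *HSPA1A* encodes the main stress-inducible form. It had 62.0, 124 and 123 CPM in the TN cows, 127, 300.2 and 215 CPM in the PF cows, and 268, 327 and 675 CPM in the HS cows. The PF cows thus lay above all TN cows, and 2 of the 3 lay below all HS cows, while HS replicate 3 held more than any other cow. The log2 fold change was 2.03 (SE 0.44, FDR 0.269, edgeR) between HS and TN, 0.98 (SE 0.41, FDR 0.908) between HS and PF, and 1.05 (SE 0.39, FDR 0.708) between PF and TN. Of these 3 comparisons, DESeq2 called it in that of HS with TN, at an FDR of 4.17e-05. Without TN replicate 1 the log2 fold change was 1.78 for HS and 0.80 for PF against TN, and without HS replicate 3 that for HS against PF was 0.47.

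*HSPA6*, a second inducible HSP70 that is nearly silent in unstressed cells, was found at low counts. The TN cows had 10, 8 and 14 counts (0.447, 0.494 and 0.835 CPM), the PF cows 24, 11 and 29 counts (1.42, 0.615 and 1.48 CPM), and the HS cows 118, 67 and 74 counts (4.36, 3.92 and 4.98 CPM). Each HS cow thus stood well clear of every cow at thermoneutrality. Its log2 fold change was 2.88 (SE 0.47, FDR 0.114, edgeR) between HS and TN and 1.90 (SE 0.47, FDR 0.405) between HS and PF. The value between PF and TN was 0.98 (SE 0.77, FDR 0.754, edgeR), with overlapping cows. With TN replicate 1 left out, the values against TN were 2.72 for HS and 0.81 for PF. Related HSP70 genes can share reads, which was not tested here. The *HSPA6* counts were 0.205% to 1.63% of the *HSPA1A* counts of the same library, highest in HS replicate 1.

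*HSPA1L*, the HSP70 gene known mainly from testis, lies beside *HSPA1A* in RefSeq (assembly ARS-UCD2.0, used for names and neighbours only). In TN cows it had 0, 15 and 2 counts, in PF cows 33, 8 and 21, and in HS cows 22, 35 and 25. These are levels of 0 to 0.927, 0.447 to 1.95 and 0.812 to 2.05 CPM, and all 3 groups overlapped. The log2 fold change between HS and TN was 2.13 (SE 1.09, FDR 0.552, edgeR), with a 95% interval from -0.31 to 4.58. It was 1.51 without TN replicate 1 and 4.64 without TN replicate 2, where the remaining TN cows had only 0 and 2 counts, and for PF against TN the value of 1.75 (SE 1.203, FDR 0.731, edgeR) became 1.14 and 4.25. The size of the difference was thus decided by single TN cows. The reads amounted to 0% to 1.53% of those on *HSPA1A*, with the largest share in PF replicate 1, the PF cow with the least *HSPA1A*. The RefSeq record of *HSPA1A* carries *HSPA1B* as a synonym, so reads of both inducible copies stand in 1 row, and how reads that fit several genes were counted is not given in the sources used here.

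*HSPA8*, which encodes the constitutive HSC70, had 311, 538 and 558 CPM in TN, 565, 745 and 405 CPM in PF, and 604, 580.03 and 914 CPM in HS cows. The lowest HS cow and the highest TN cow were nearly level, and the PF cows spanned both groups. The log2 fold change between HS and TN was 0.57 (SE 0.38, FDR 0.626, edgeR), with a 95% interval from -0.28 to 1.41, which holds both no change and a fold change above 1.5. It was 0.35 without TN replicate 1, and the value for PF against TN went from 0.28 to 0.07.

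The HSP110 genes differed from each other. *HSPH1*, the inducible HSP110, had 14.5, 19.8 and 23.0 CPM in TN, 17.0, 27.4 and 14.5 CPM in PF, and 52.1, 56.1 and 62.6 CPM in HS cows. The TN and PF cows overlapped, with PF replicate 2 the highest of them, and the lowest HS cow stood far above the highest of them. The HS cows varied little, with a coefficient of variation of 9.27%, against 52.0% for *HSPA1A* in the same cows. *HSPH1* was called between HS and TN (log2 fold change 1.56, SE 0.23, FDR 0.0879, edgeR) and had 1.53 (SE 0.27, FDR 0.127) between HS and PF. Between PF and TN it was 0.04 (SE 0.30, FDR 0.975, edgeR), with a 95% interval from -0.63 to 0.70. Leaving out any 1 cow ended the call between HS and TN, with a log2 fold change of 1.41 and an FDR of 0.118 without TN replicate 1. For PF against TN the value without that cow was -0.12.

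*HSPA4*, the constitutive HSP110, had 35.1, 39.9 and 35.1 CPM in TN, 43.3, 36.4 and 30.7 CPM in PF, and 50.4, 40.7 and 49.8 CPM in HS cows. The HS cows lay just above all TN cows, by as little as 40.7 against 39.9 CPM. This was the smallest difference between HS and TN among the 10 genes. The log2 fold change was 0.34 (SE 0.20, FDR 0.589, edgeR), with a 95% interval from -0.11 to 0.79. It was 0.32 without TN replicate 1, and the value for PF against TN was -0.02.

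For HSP90, the inducible *HSP90AA1* had 149, 315 and 262 CPM in TN, 412, 449.8 and 279 CPM in PF, and 614, 456 and 827 CPM in HS cows. Every HS cow lay above every PF cow, although HS replicate 2 and PF replicate 2 were close. The log2 fold changes were 1.37 (SE 0.39, FDR 0.392, edgeR) for HS against TN, 0.73 (SE 0.32, FDR 0.908) for HS against PF and 0.65 (SE 0.37, FDR 0.709) for PF against TN. The constitutive *HSP90AB1* had 158, 367 and 269.8 CPM in TN, 414, 445 and 338 CPM in PF, and 417, 404 and 639 CPM in HS cows. Here the PF and HS cows overlapped, and only HS replicate 3 stood above them. Its log2 fold change was 0.87 (SE 0.39, FDR 0.522, edgeR) between HS and TN and 0.28 (SE 0.29, FDR 1.00) between HS and PF. Between PF and TN it was 0.59 (SE 0.37, FDR 0.722, edgeR). Without TN replicate 1 the values for HS against TN were 1.13 for *HSP90AA1* and 0.61 for *HSP90AB1*, and those for PF against TN were 0.40 and 0.33.

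The HSP40 genes took different courses over the groups. *DNAJB1*, the stress-inducible J-domain partner of HSP70, had 29.9, 39.2 and 41.5 CPM in TN, 43.3, 59.9 and 47.9 CPM in PF, and 97.1, 87.6 and 124 CPM in HS cows. The 3 groups formed 3 steps without overlap, the second step larger than the first. Its log2 fold changes were 1.47 (SE 0.24, FDR 0.114, edgeR) for HS against TN, 1.03 (SE 0.24, FDR 0.350) for HS against PF and 0.45 (SE 0.25, FDR 0.709) for PF against TN. When TN replicate 1 was left out, they were 1.35 for HS and 0.33 for PF against TN. *DNAJA1*, a J-domain protein that also serves newly made and imported proteins, had 18.9, 45.1 and 36.3 CPM in TN, 57.9, 102 and 48.5 CPM in PF, and 68.5, 77.2 and 109 CPM in HS cows. All PF cows lay above all TN cows, and PF replicate 2 lay among the HS cows. The log2 fold change was 1.06 (SE 0.37, FDR 0.697, edgeR) for PF against TN, 0.29 (SE 0.31, FDR 1.00) for HS against PF and 1.34 (SE 0.33, FDR 0.315) for HS against TN. Without TN replicate 1, which had the lowest *DNAJA1* level of all cows, these were 0.78 for PF and 1.06 for HS against TN.

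**Figure D2:**
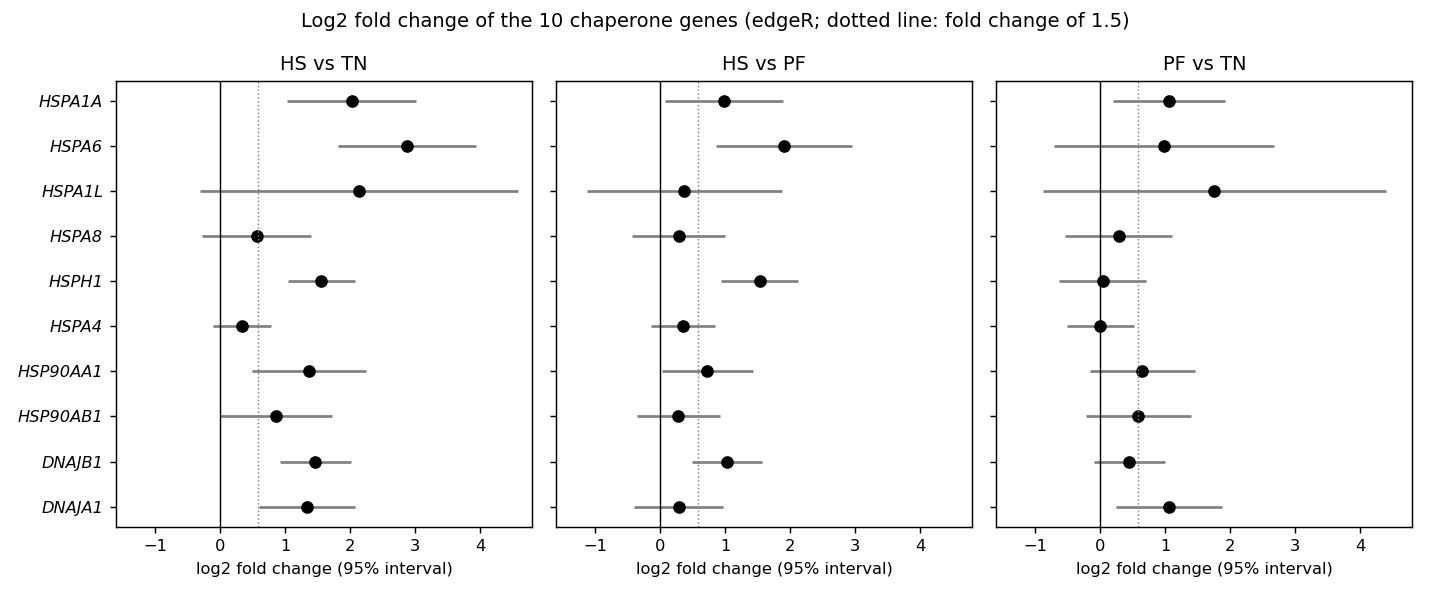
Log2 fold change (x axis) of each of the 10 genes (y axis) in the 3 comparisons of 2 groups, with the 95% interval from edgeR as a line and a fold change of 1.5 as a dotted line. For HS against TN the intervals of *HSPA1A*, *HSPA6*, *HSPH1*, *DNAJB1* and *DNAJA1* lie above the dotted line, for HS against PF those of *HSPA6* and *HSPH1*, and for PF against TN none.

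At matched intake, between HS and PF cows, all 10 genes had positive log2 fold changes between 0.28 and 1.90. Their median was 0.55, where the median over all 14510 genes tested was 0.01. By edgeR 0 of the 10 and 0.00689% of all genes were called higher in HS cows, and 5 of the 10 and 3.07% of all genes had an unadjusted p under 0.05. DESeq2 called 3 of the 10, *HSPH1* (FDR 0.000319), *DNAJB1* (FDR 0.0245) and *HSPA6* (FDR 0.0328), and 0.462% of all genes. The HS cows exceeded every PF cow in these 3 genes and in *HSP90AA1*, which is 4 of 10 where 5.95% of all genes did so. A fold change over 1.5 was seen for 5 of 10 genes, the same 4 and *HSPA1A*, and for 9.26% of all genes. Leaving out 1 cow moved the count of non-overlapping genes between 4 and 7, the highest without PF replicate 2, and the count above 1.5-fold between 3 and 6, the lowest without HS replicate 3. Without that cow the log2 fold changes were 0.49 for *HSP90AA1*, 0.05 for *HSPA8*, 0.04 for *HSP90AB1* and 0.07 for *DNAJA1*. The counts with 1 cow left out have no share over all genes beside them, so a rise in non-overlapping genes, easier with fewer cows, cannot be read.

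Between PF and TN cows the log2 fold changes lay between 0.00 for *HSPA4* and 1.75 for *HSPA1L*, and the sign of *HSPA4* and of *HSPH1* (0.04) turned when some cows were left out. The median of the 10 genes was 0.62, against -0.01 over all 14580 genes tested. Calls by edgeR came to 0 of the 10 genes and 0% of all genes, and those by DESeq2 to 0 of the 10 and 0.207% of all genes. An unadjusted p under 0.05 was seen for 2 of the 10 genes, *HSPA1A* and *DNAJA1*, and for 2.99% of all genes. The PF cows exceeded every TN cow in *HSPA1A*, *DNAJA1* and *DNAJB1*, which is 3 of 10 against 6.81% of all genes. A fold change over 1.5 was reached by 6 of 10 genes and 9.33% of all genes, and by 4 of 10 without TN replicate 1 or without PF replicate 2. Without TN replicate 1 the median was 0.37, and with any 1 cow left out the groups stood apart in 3 to 6 genes. Fewer cows make non-overlap easier, and no share over all genes was set beside the counts with a cow left out.

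The HS cows were also set against the average of the groups at thermoneutrality, in 1 fit of all 9 libraries, as HS against the mean of PF and TN. This contrast holds part of the difference between HS and TN, so a gene can pass it without differing between HS and PF. By edgeR 3 of the 10 genes passed, all inducible members, and 0.119% of all genes were called higher. They were *HSPH1* (log2 fold change 1.56, SE 0.22, FDR 0.0336), *DNAJB1* (1.26, SE 0.20, FDR 0.0608) and *HSPA6* (2.40, SE 0.42, FDR 0.0811). Between HS and PF alone the FDRs of these 3 were 0.127, 0.350 and 0.405 (edgeR). DESeq2 called 5 of the 10, adding *HSPA1A* (FDR 0.00444) and *HSP90AA1* (FDR 0.0335), and 0.463% of all genes. An unadjusted p under 0.05 in edgeR was seen for 6 of the 10 and 3.51% of all genes. With 1 cow left out, *HSPH1* passed in 6 of 9 fits and was lost without PF replicate 1, HS replicate 2 or HS replicate 3 (FDR 0.122, 0.142 and 0.140, edgeR). *DNAJB1* passed only without TN replicate 2 or PF replicate 2, and *HSPA6* in 0 of the 9 fits, with FDRs from 0.103 to 0.289 (edgeR). Without TN replicate 1, *HSPH1* was the 1 gene of the 10 that passed (FDR 0.0941, edgeR).

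A graded gene would put the PF cows somewhere between TN and HS, not always midway, and a heat-only gene would leave them with the TN cows. On the log2 CPM scale (offset 0.5), with the TN mean at 0% and the HS mean at 100%, the PF mean lay at 0.545% for *HSPH1*, 26.8% for *HSPA6* and 30.4% for *DNAJB1*. It lay at 48.7% for *HSPA8*, 48.9% for *HSP90AA1* and 52.2% for *HSPA1A*, close to midway. The highest positions were 71.5% for *HSP90AB1*, 75.3% for *HSPA1L* and 76.0% for *DNAJA1*. The TN means of *HSPA6* (0.592 CPM) and *HSPA1L* (0.349 CPM) were near the size of the offset. Their positions therefore depend on it, and the order of *HSPA6* and *DNAJB1* is not fixed. For *HSPA4* the position of -2.13% has little meaning, since its TN and HS means were so close. With any 1 cow left out, *HSPH1* stayed between -16.1% and 12.4%, *HSPA6* between 20.1% and 39.1%, *DNAJB1* between 21.5% and 37.2%, and *DNAJA1* between 53.5% and 91.8%. The range for *HSPA8* was 5.32% to 87.0%, so its place was not determined by these cows.

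The departure of the PF group from the midpoint was tested for each gene in the fit of 9 libraries. By edgeR 0 of the 10 genes passed at an FDR below 0.1, and 0.00663% of all genes did. DESeq2 also passed 0 of the 10, and 0.525% of all genes. An unadjusted p under 0.05 was seen for 1 of the 10, a share near that of all genes, 5.15%. That gene was *HSPH1*, whose PF mean lay below the midpoint by a log2 value of -0.75 (SE 0.24, FDR 0.710, edgeR), with a 95% interval from -1.27 to -0.23. For *HSPA1A* the departure was 0.04 (SE 0.37, FDR 0.994, edgeR) with an interval from -0.77 to 0.84, and for *DNAJA1* 0.38 (SE 0.30, FDR 0.902) with an interval from -0.27 to 1.04. The intervals of *HSPA1A* and *DNAJA1* hold both a midway and an off-centre level. That of *HSPH1*, which does not hold the midpoint, is not adjusted for the number of genes tested. The test asks only about the exact midpoint, which a graded gene need not take. It therefore cannot sort the 10 genes into graded and heat-only ones.

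**Figure D3:**
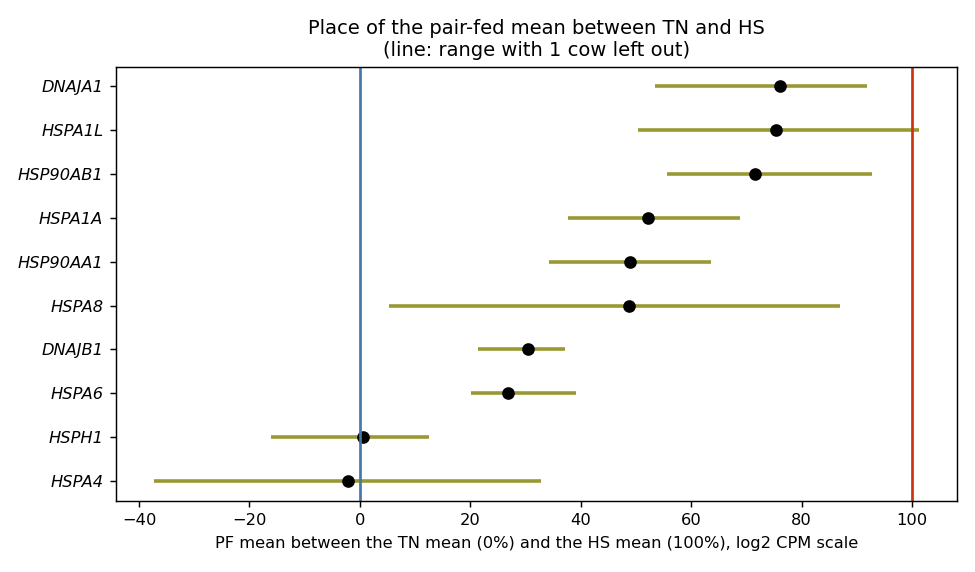
Place of the PF mean of each gene (y axis) between the TN mean, set to 0%, and the HS mean, set to 100% (x axis), on the log2 CPM scale; each line is the range when 1 cow is left out. *HSPH1* sits at 0.545%, *HSPA6* and *DNAJB1* between 20.1% and 39.1% with any cow left out, and *DNAJA1* at 76.0%.

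The balance of inducible to constitutive members was read within each library as the ratio of their counts, which does not depend on how libraries are scaled, and in which gene length cancels when groups are compared. *HSPA1A* reads per *HSPA8* read were 0.199, 0.231 and 0.221 in TN, 0.225, 0.403 and 0.531 in PF, and 0.443, 0.564 and 0.739 in HS cows. The TN cows were tightly grouped and all below the HS cows, while the PF cows ran from the TN level into the HS range. The means were 0.217 ± 0.0162, 0.387 ± 0.154 and 0.582 ± 0.148 (SD, n = 3), a log2 difference of 1.40 between HS and TN (exact two-sided permutation test, p = 0.1, adjusted over 9 tests 0.18). With 3 cows against 3, 0.1 is the smallest p this exact test can give, so no ratio could pass a threshold of 0.05. For HS against PF the log2 difference was 0.65 and for PF against TN 0.75 (exact permutation test, p = 0.2 for each, adjusted 0.257).

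In the other families the ratio set the HS cows apart from both other groups. *HSP90AA1* reads per *HSP90AB1* read were 0.944, 0.858 and 0.971 in TN, 0.995, 1.01 and 0.826 in PF, and 1.47, 1.13 and 1.29 in HS cows. The PF mean of 0.944 ± 0.103 and the TN mean of 0.924 ± 0.0592 (SD, n = 3) differed by less than the spread between cows, with a log2 difference of 0.03 (exact permutation test, p = 0.7, adjusted 0.787). Against them the HS mean of 1.30 ± 0.173 was higher by 0.46 (PF) and 0.48 (TN) on the log2 scale, without overlap (exact permutation test, p = 0.1 for each, adjusted 0.18). *HSPH1* reads per *HSPA4* read were 0.414, 0.497 and 0.654 in TN, 0.393, 0.752 and 0.471 in PF, and 1.03, 1.38 and 1.26 in HS cows. Again TN and PF cows were mixed and all HS cows stood above them. The log2 difference was 1.24 for HS against TN and 1.23 for HS against PF (exact permutation test, p = 0.1 for each, adjusted 0.18), and 0.02 for PF against TN (exact permutation test, p = 1).

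**Figure D4:**
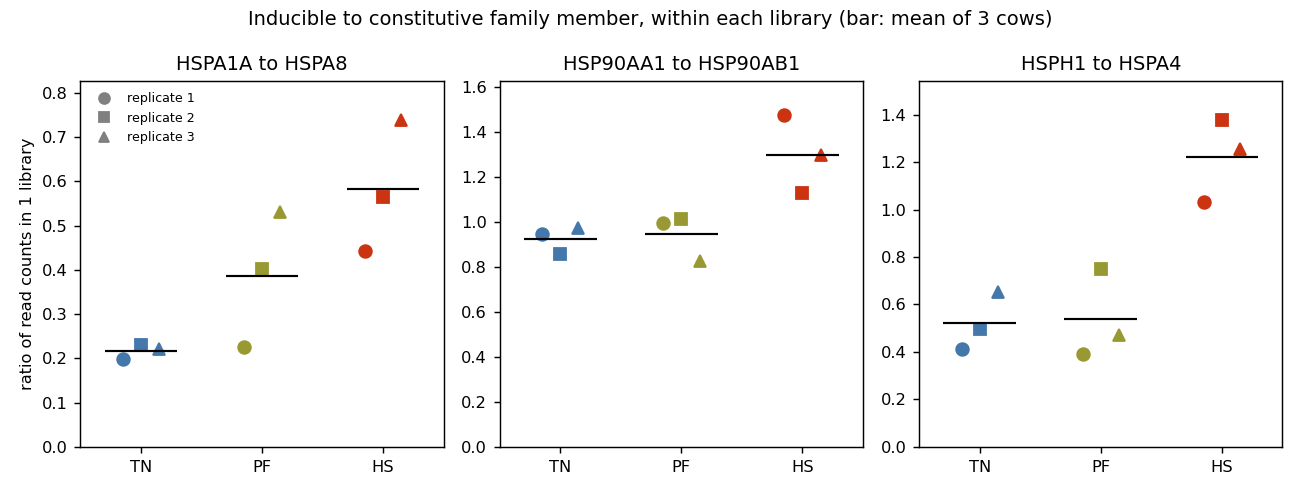
Ratio of the counts of the inducible to the constitutive member of HSP70, HSP90 and HSP110 within each library (y axis, from 0) by group (x axis), with a symbol for each cow and a bar at the mean of 3 cows. The PF cows spread from 0.225 to 0.531 for HSP70 and lie with the TN cows for HSP90 and HSP110.

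With 1 cow left out, the HS against TN difference stayed between 1.21 and 1.58 (log2) for *HSPA1A* to *HSPA8*, between 0.39 and 0.58 for *HSP90AA1* to *HSP90AB1*, and between 1.09 and 1.42 for *HSPH1* to *HSPA4*. For HS against PF these ranges were 0.30 to 0.92, 0.36 to 0.55 and 1.03 to 1.498. The *HSPA1A* to *HSPA8* difference between PF and TN ran from 0.48 without PF replicate 3 to 1.10 without PF replicate 1, which also set the lowest value, 0.30, for HS against PF. The pair of HSP40 genes was looked at in the same way after their values were seen, and is given without a test. The number of *DNAJB1* reads per *DNAJA1* read was 1.198 ± 0.358 for TN, 0.774 ± 0.201 for PF and 1.23 ± 0.164 for HS cows (SD, n = 3). The PF cows thus had the lowest mean, with 0.748, 0.586 and 0.986, and the TN cows the widest spread, from 0.870 to 1.58.

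The 10 genes together held 0.124% ± 0.0197 of the reads of a TN library, 0.166% ± 0.0317 of a PF library and 0.248% ± 0.0557 of an HS library (SD, n = 3). Within these reads, the part on *HSPA8* was 39.1% ± 2.71 for TN, 32.4% ± 2.73 for PF and 27.7% ± 0.838 for HS cows. The part on *HSPA1A* went the other way, from 8.47% ± 0.608 over 12.3% ± 4.21 to 16.1% ± 3.75, and that on *HSP90AA1* was 19.9% ± 1.09, 21.8% ± 2.32 and 25.0% ± 2.98. For *HSP90AB1* the parts were 21.6% ± 2.62, 23.2% ± 2.32 and 19.3% ± 0.569. These are parts of reads, which depend on transcript length as well as on abundance.

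As a description of how the genes varied over the 9 libraries, which share groups and depth, the correlations of log2 CPM among the 10 genes ran from r = 0.436 (*HSPA1L* with *HSPH1*) to r = 0.951 (*DNAJA1* with *HSP90AB1*). *HSPH1* and *DNAJB1* had r = 0.939, and *HSP90AA1* and *HSP90AB1* had r = 0.946. Of 15072 other genes, the 5 most like *HSPH1* were *LOC101906008* (r = 0.955), *TMEM218* (0.949), *LOC100848538* (0.945), *TENT5C* (0.945) and *C18H19orf81* (0.941, at 0 counts in each TN cow), with *DNAJB1* in rank 6. *TENT5C*, for example, had 8.42 ± 2.09 CPM in TN, 9.21 ± 0.867 CPM in PF and 16.4 ± 0.330 CPM in HS cows (SD, n = 3). The 5 most like *HSPA1A* were *HSPB1*, which encodes HSP27 (r = 0.981), *MCAT* (0.979), *FKBP4* (0.978), *TOLLIP* (0.978) and *RNASEK* (0.970). *DNAJB1* (0.932, rank 38) and *DNAJA1* (0.915, rank 63) were the closest of the 10 genes to *HSPA1A*.

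Other parts of the chaperone network were described in the same fits, with lists chosen with earlier results of these data known. The share of all genes that were higher was not computed, so no count of higher genes here or below has a base rate. In edgeR, 4.13% of all genes were higher at an unadjusted p under 0.05 between HS and TN. The share was 3.07% between HS and PF and 2.99% between PF and TN. DESeq2 called 0.863%, 0.462% and 0.207% of all genes higher, in that order. Of 12 other cytosolic HSP70, HSP110 and J-domain genes, 7 were higher and 5 lower in HS than in TN cows, and their median log2 fold change was 0.10. Neither edgeR nor DESeq2 called any of the 12, and edgeR gave 1 an unadjusted p under 0.05. The largest differences were 0.55 (SE 0.21, FDR 0.473, edgeR) for *DNAJB6*, a J-domain protein that holds back aggregation, -0.47 (SE 0.43, FDR 0.713) for *HSPA12A* and -0.46 (SE 0.46, FDR 0.741) for *HSPA4L*, the remaining HSP110 gene. Between HS and PF cows 9 of the 12 were higher, with a median of 0.31, and between PF and TN cows 2 of the 12, with a median of -0.18. In neither comparison did edgeR or DESeq2 call any of them. Between HS and PF 3 of the 12 had an unadjusted p under 0.05 (edgeR), all higher in HS cows. Between PF and TN it was 1, lower in PF cows. That gene was also 1 of the 3, and its mean was lowest in the PF cows.

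Of 15 co-chaperones of HSP70 and HSP90, 14 were higher in HS than in TN cows, and the median log2 fold change was 0.60. Of all genes, 4.13% were higher at an unadjusted p under 0.05 (edgeR), and DESeq2 called 0.863% higher. Among the 15, edgeR called 0, 8 had an unadjusted p under 0.05, and DESeq2 called 3. These were *FKBP5* (1.35, SE 0.42, edgeR), *FKBP4* (1.31, SE 0.35) and *AHSA1* (0.99, SE 0.24), where the FKBP proteins join HSP90 at steroid receptors and *AHSA1* speeds up the ATPase of HSP90. *FKBP5* had 13.8 ± 6.85 CPM in TN, 9.23 ± 3.35 CPM in PF and 35.4 ± 17.7 CPM in HS cows (SD, n = 3), and DESeq2 also called it between HS and PF, the only one of the 15 called there (log2 fold change 1.94, SE 0.38, FDR 0.183 by edgeR and 0.000329 by DESeq2). Between HS and PF edgeR called 0 of the 15, 13 were higher, 5 had an unadjusted p under 0.05 and the median was 0.26. Between PF and TN 10 were higher with a median of 0.27, and 0 were called by either tool or had an unadjusted p under 0.05.

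The transcripts of the heat shock factors showed no call. For *HSF1*, the main regulator of the inducible genes, the mean level was 16.93 CPM in TN, 20.0 CPM in PF and 25.6 CPM in HS cows, and the log2 fold change between HS and TN was 0.58 (SE 0.25, FDR 0.520, edgeR). The values were -0.91 (SE 0.46, FDR 0.545) for *HSF4* and -0.20 (SE 0.29, FDR 0.821) for *HSF2*. By edgeR and DESeq2 0 of the 5 genes listed (with *HSF5* and the HSF1-binding *HSBP1*) were called in any of the 3 comparisons, and only 1, between HS and TN, had an unadjusted p under 0.05 (edgeR).

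Among 6 family members of other compartments, 5 were higher in HS than in TN cows, with a median of 0.65, 0 calls by edgeR, 3 at an unadjusted p under 0.05, and 1 call by DESeq2. That one was *HSP90B1*, the HSP90 of the endoplasmic reticulum, whose log2 fold change was 1.09 (SE 0.39, FDR 0.465, edgeR). The ER chaperone *HSPA5* had 0.81 (SE 0.33) and the mitochondrial *HSPA9* 0.71 (SE 0.36). Between HS and PF cows the median of the 6 was 0.21 and between PF and TN cows 0.44, with 0 called by either tool and 0 and 1 at an unadjusted p under 0.05 (edgeR). Of the 8 subunits of the TRiC chaperonin, which folds actin and tubulin, 7 were higher in HS than in TN cows (median 0.50), 6 in HS than in PF cows (0.12) and 8 in PF than in TN cows (0.40). Neither tool called any in these comparisons, and 2, 0 and 0 had an unadjusted p under 0.05 (edgeR). The largest differences between HS and TN were 0.83 (SE 0.35) for *CCT3*, 0.69 (SE 0.34) for *CCT2* and 0.61 (SE 0.27) for *CCT7*. The counts of higher genes in these 2 lists have no share over all genes beside them.

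Immediate early genes, which answer quickly to many stimuli, were read in the same libraries. Their summed level was 179 to 221 CPM in TN, 148 to 252 CPM in PF and 190.1 to 247 CPM in HS cows, and the groups overlapped. Of the 10 tested between HS and TN, edgeR and DESeq2 called 0 and 1 had an unadjusted p under 0.05 (edgeR), with log2 fold changes of 1.59 (SE 0.73) for *EGR1*, -1.01 (SE 0.53) for *DUSP1* and 0.63 (SE 0.25) for *IER3*. Between HS and PF and between PF and TN both tools also called 0 of the 10. An unadjusted p under 0.05 (edgeR) was seen for 2, higher in HS than in PF cows, and for 1, lower in PF than in TN cows.

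Other features of the libraries moved with the groups. The summed level of 5 macrophage markers was 260 to 511 CPM in TN, 425 to 636 CPM in PF and 529.7 to 859 CPM in HS cows. Among them DESeq2 called *MARCO* higher in HS than in TN cows and *CD14* higher in PF than in TN cows. By edgeR 0 of the 5 were called in any comparison. An unadjusted p under 0.05 (edgeR) was seen for 1 between HS and TN and 4 between HS and PF. Between PF and TN it was seen for 2, 1 of them lower. Between HS and TN 4 of the 5 were higher (median log2 fold change 0.45), and between HS and PF also 4 (0.62). Between PF and TN only 2 were higher (-0.15), *MARCO* and *CD14*, the latter at 116 CPM in TN and 272 CPM in PF cows. The share of counts on genes of the mitochondrial genome was 13.6% to 22.2% for TN, 6.90% to 7.79% for PF and 3.84% to 5.68% for HS cows, and so was lowest in the group with the highest means of the 10 genes. The red cell gene *HBB* had 11.1 ± 9.99 CPM in TN, 1.39 ± 1.202 CPM in PF and 0.644 ± 0.381 CPM in HS cows (SD, n = 3). It was called lower in HS than in TN cows by DESeq2 but not by edgeR (FDR 0.163). Of 3 red cell genes listed, it was the only 1 with enough counts to be tested. Of the 6 hepatocyte markers, 5 were higher in HS than in TN cows (median log2 fold change 0.75), 6 in PF than in TN cows (0.66) and 3 in HS than in PF cows (-0.03). No share over all genes was set beside the counts of higher macrophage and hepatocyte markers. The parts that hepatocyte content, macrophages, mitochondrial content or blood had in the levels of the 10 genes were not tested. When library sizes were taken without mitochondrial genes, no log2 fold change of the 10 genes moved by more than 0.00866 in the comparisons of 2 groups. This bears on scaling only, since TMM already trims genes with extreme differences, and it does not test the part of mitochondrial content. Lists of hepatocyte, lymphocyte, endothelial, stellate and bile duct markers had 0 calls by either tool and 0 genes at an unadjusted p under 0.05 (edgeR), and no skeletal muscle marker had enough counts to be tested.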

How the data were processed

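Liver RNA of 9 cows (3 each in TN, PF and HS, grouped by the sample titles) was sequenced as poly-A libraries. According to the submitters' processing notes the authors cleaned reads with fastp 0.23.2, aligned them with STAR 2.7.9a (build ARS-UCD1.2 in the methods) and counted them with featureCounts 2.0.3. The deposited values are raw counts per gene without normalization. The annotation release, strand setting and treatment of multi-mapping reads are not given in the sources used here. All 9 count columns were used and 0 were left out.

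Pairs of groups (6 libraries) were tested in R 4.3.3 by edgeR 4.0.16 (TMM, filterByExpr, quasi-likelihood F test, two-sided). The contrasts over 3 groups used all 9 libraries. Calls needed an FDR under 0.1 and, except for the midpoint contrast, a fold change above 1.5. Standard errors and 95% intervals were derived from the F statistic. DESeq2 1.42.0, RLE scaling, library sizes without mitochondrial genes, other filters (none, or at least 10 counts in every library), an FDR under 0.05, a joint fit of all libraries, a block for replicate number and leaving out each cow were alternatives. Scripts were tested on simulated data. Ratios of counts were compared by exact two-sided permutation tests, adjusted over 9 tests.

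Named are the 10 chaperone genes, the called or up to 3 most different genes of each list of related genes, and the 5 genes most correlated with *HSPH1* and *HSPA1A*. Of 14 lists (92 genes), all were in the table. The 10 genes, the lists and the tests were chosen with earlier results of these data known. Ratios and levels per kilobase had been planned, but no gene lengths were used here, so ratios are of counts and no level is compared between genes.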

Additional observations from a re-analysis of the deposited data

How the results depend on the processing

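For HS against TN, edgeR called 1 of the 10 chaperone genes, and the number was 6 with DESeq2, 5 without a filter on low counts (adding *HSPA1A*, *HSPA6*, *DNAJA1* and *DNAJB1*), 0 at an FDR under 0.05, 0 with all 9 libraries in 1 fit, and 0 in every fit with 1 cow left out. For HS against PF it was 0, and 3 with DESeq2, 1 without a filter and 0 to 1 with 1 cow left out, the 1 being *HSPH1* without PF replicate 2. For HS against the mean of PF and TN it was 3, and 5 with DESeq2, 1 at an FDR under 0.05 and 0 to 2 with 1 cow left out. Over all genes, DESeq2 called 270, 122, 91, 154 and 87 where edgeR called 13, 4, 0, 24 and 1 (HS against TN, HS against PF, PF against TN, HS against the mean, and the midpoint), and edgeR without a filter called 124, 98, 136, 121 and 37. The cause was not tested. Same-numbered cows did not deviate together (r from -0.218 to 0.241, with the same number as best match in 3 of 9 cases). With 3 cows a group this cannot exclude a pairing, and the sample titles state none. With the replicate number as a block, 1, 0, 0, 2 and 0 of the 10 genes were called in the 5 contrasts in that order, and 33, 6, 1, 11 and 1 of all genes. *HSPA6* lost its call over the mean (FDR 0.157, edgeR). For the ratios, the mean difference within numbers equals the unpaired one by arithmetic and tests nothing.

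Values near 0 changed sign. The log2 fold change of *HSPA4* between PF and TN, 0.00, became -0.0036 without mitochondrial genes, -0.016 with at least 10 counts in every library and -0.0102 with the replicate block. The departure of *HSPA8* from the midpoint, -0.00, became 0.0015 with DESeq2, 0.0024 with RLE, 0.0018 without mitochondrial genes and 0.0215 with the block. With 1 cow left out, the sign also changed for *HSPA1L* in HS against PF (-0.0056 to 0.97), *HSPA4* (-0.13 to 0.12) and *HSPH1* (-0.28 to 0.23) in PF against TN, the midpoint departures of *HSPA8* (-0.24 to 0.20), *HSPA1A* (-0.29 to 0.30), *HSP90AA1* (-0.18 to 0.15) and *DNAJA1* (-0.0037 to 0.60), and the PF against TN ratio differences of *HSP90AA1* to *HSP90AB1* (-0.0264 to 0.12) and *HSPH1* to *HSPA4* (-0.25 to 0.22). No such result had been called. At least 10 counts in every library left *HSPA1L* untested, and *HSPA6* too except between HS and PF. The alternatives on gene length were not run. The 3 cows a group limit all tests, and the counts of *HSPA1L* and *HSPA6* add counting error to the spread between cows.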
